A study of Mus musculus with 21 samples.

Results

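Sucnr1 encodes the mouse receptor for succinate and is followed here as 1 gene of the 43432 gene identifiers counted, in all 21 libraries of a survey of tuft cells. It was taken by its Ensembl identifier, ENSMUSG00000027762, which carries the synonym Gpr91. The libraries hold poly(A) RNA of sorted cells from mice of the strain C57BL6.Il25(Flare25/Flare25), untreated animals in which both copies of the cytokine gene Il25 carry a fluorescent reporter. The gate took living cells without CD45, a marker of blood cells, and with the epithelial marker EPCAM. Those with reporter signal are the tuft cells, from small intestine (n = 3), colon (n = 4), gall bladder (n = 3), thymus (n = 4) and trachea (n = 4). Cells of the small intestine without reporter signal, the non-tuft group (n = 3), are the only reference, so a comparison of another organ with them also holds the difference between organs. Each library came from 1 male mouse aged 12 weeks, except that a trachea library was a pool of 4 mice: pools 1 and 2 were male and aged 12 and 16 weeks, pools 3 and 4 female and aged 16 and 14 weeks. The gate rests on Il25 itself, so the level of Il25 in tuft over non-tuft cells is no finding.

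Sucnr1 is a G protein-coupled receptor of the cell surface that binds extracellular succinate, an intermediate of the citric acid cycle that gut microbes also release. Tuft cells are rare epithelial cells that sense chemicals through a taste-like pathway: a receptor acts through G proteins, phospholipase C and inositol trisphosphate receptors to open the cation channel Trpm5. In the small intestine, succinate from protists and bacteria is known to act through this receptor on tuft cells, which release IL-25 and start a type 2 immune response. The transcription factor Pou2f3, without which tuft cells do not form, binds DNA through a POU domain.

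In the annotation (GENCODE M21, build GRCm38) Sucnr1 lies on the plus strand of chromosome 3, from 60081869 to 60087566, and overlaps no other annotated gene. Its coding transcript has 2 exons, of 60 and 1511 bases, and the second holds 948 of the 951 coding bases before the stop, or 317 codons in all. The 250 bases before the transcript start, chr3:60081619-60081868 on the plus strand, are shown because they hold the octamer ATGCAAAT, in capitals, the recognition sequence of POU factors of the Pou2f family (sequence from RefSeq, GRCm38.p6).

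Sucnr1 promoter: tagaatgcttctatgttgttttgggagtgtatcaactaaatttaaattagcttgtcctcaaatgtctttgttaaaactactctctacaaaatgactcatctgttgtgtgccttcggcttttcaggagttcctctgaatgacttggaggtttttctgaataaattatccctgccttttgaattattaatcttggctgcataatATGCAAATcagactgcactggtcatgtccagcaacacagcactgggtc

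The octamer occurs once, 48 to 41 bases upstream of the start. Both strands were searched, as ATGCAAAT and its reverse complement ATTTGCAT. A match of this kind was present in 526 of 32851 windows of the same length before annotated starts (1.60%), or in 490 of 27025 genes (1.81%). Of 27 tuft cell genes of a core list with a window, 2 had it, Hpgds and Kctd12. Of 10 genes of tuft cell outputs and cytokine receptors 3 had it, Hpgds, Il33 and the receptor gene Il4ra. Of 19 genes of G proteins and the taste cascade 1 had it, Itpr3. Of 19 related receptors 0 had it. The match is a description of the sequence, and no binding data were used here.

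The level of Sucnr1 is given as CPM, the count relative to the library total after TMM scaling, with the raw count behind it. In non-tuft cells of the small intestine it was at 0.934, 0.510 and 0.306 CPM in replicates 1, 2 and 3, from 52, 25 and 21 counts. In small intestine tuft cells it was at 23.7, 19.8 and 28.8 CPM in replicates 2, 3 and 4, from 1050, 790 and 1179 counts. The lowest of these tuft libraries lay far above the highest non-tuft library, so the groups did not overlap.

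The 4 trachea pools held the highest levels of the series, at 40.0, 73.5, 58.1 and 94.9 CPM, from 1425, 4681, 1880 and 2688 counts. All 4 lay above every small intestine tuft library. The spread was wide, 2.37-fold from the lowest pool to the highest, against 1.46-fold in small intestine tuft cells.

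In tuft cells of the colon Sucnr1 was at 1.23, 3.05, 1.21 and 5.39 CPM in replicates 1 to 4, from 53, 136, 65 and 267 counts. Thymus tuft cells were at 5.45, 1.16, 2.48 and 3.90 CPM, from 340, 63, 176 and 209 counts. Both groups lay between the non-tuft and the small intestine tuft libraries without overlap with either, and they overlapped each other almost wholly.

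Gall bladder tuft cells were at 0.228, 0.967 and 0.209 CPM in replicates 1, 3 and 4, from 9, 27 and 8 counts. These libraries overlapped the non-tuft libraries, and they lay below every colon and thymus library. Every count was above 3, the upper 95% limit of the expected count where 0 are seen. That limit covers counting error only, so these counts do not by themselves show that gall bladder tuft cells express the gene.

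**Figure D1:**
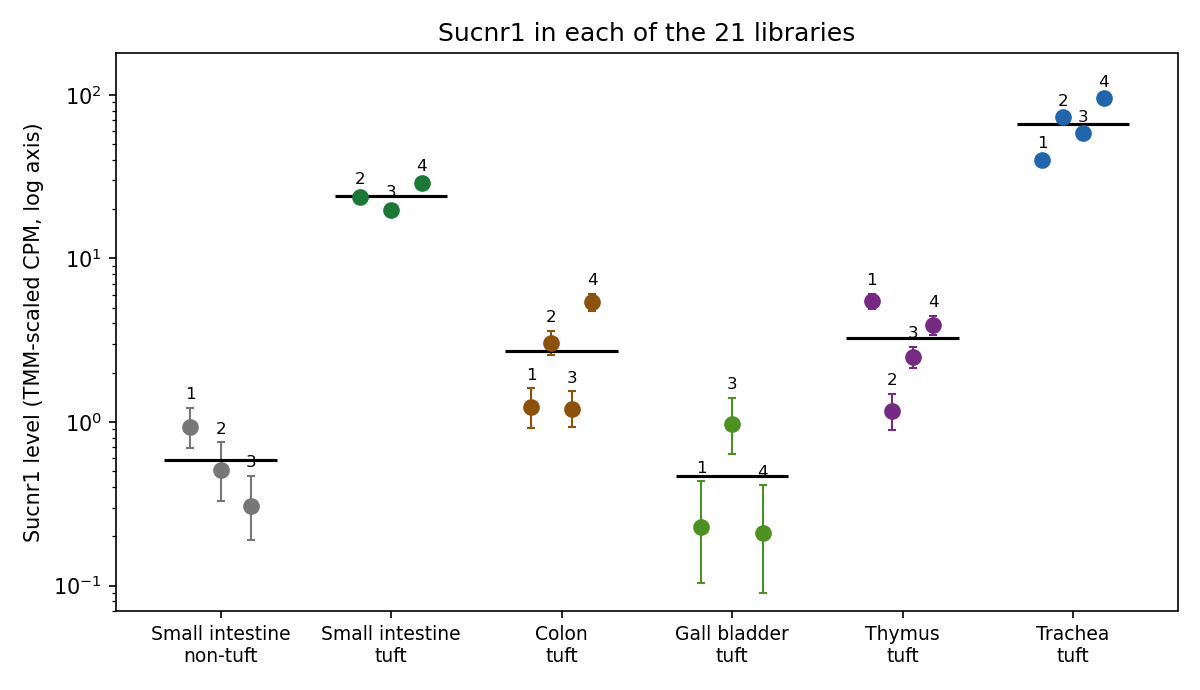
Sucnr1 level in TMM-scaled CPM on a log axis for each of the 21 libraries, by group. Points are libraries with their replicate number, vertical bars are exact 95% Poisson intervals of the count, and horizontal bars are group means. Trachea tuft libraries sit highest (40.0 to 94.9 CPM) and small intestine tuft libraries next (19.8 to 28.8 CPM), while gall bladder tuft (0.209 to 0.967 CPM) and non-tuft libraries (0.306 to 0.934 CPM) share the lowest range.

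As means ± SD the order was 66.6 ± 23.3 CPM in trachea (n = 4), 24.1 ± 4.55 in small intestine tuft (n = 3), 3.25 ± 1.85 in thymus (n = 4), 2.72 ± 1.98 in colon (n = 4), 0.584 ± 0.320 in non-tuft cells (n = 3) and 0.468 ± 0.432 in gall bladder (n = 3). The relative spread within a group (SD over mean) ran from 18.9% in small intestine tuft to 92.3% in gall bladder tuft. Of the 5 neighbouring steps in this order, the test called 1, from small intestine down to thymus. The steps from trachea to small intestine, thymus to colon, colon to non-tuft and non-tuft to gall bladder were not called. In bulk RNA, fewer cells that express the gene and less RNA in each cell cannot be told apart.

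Within the small intestine, Sucnr1 rose in tuft over non-tuft cells with a log2 fold change of 5.43 ± 0.40 (SE), an estimated 43.3-fold (edgeR quasi-likelihood test, adjusted p = 4.25e-06, n = 3 against 3). A gene counts as called here, or as having risen or fallen, where its adjusted p is below 0.05 and it differs at least 2-fold. Of the 16063 genes tested in this comparison 26.9% were called, 13% of all genes higher and 13.9% lower. The value was 5.10 to 5.96 when each of the 6 libraries was left out in turn, and it was called each time. Of the 30 genes of the tuft core list (a list of tuft cell markers that holds neither Sucnr1 nor Il25), 29 rose, with a median of 6.11, and 25 of the 30 had a larger log2 fold change than Sucnr1. The median over all genes tested was -0.03.

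Non-tuft libraries held traces both of Sucnr1 and of tuft cell genes, but the 2 did not run together over the replicates. Replicate 3 had the lowest Sucnr1 level (0.306 CPM) and the highest levels of Trpm5 and Pou2f3. Trpm5 was at 31.3, 29.4 and 69.2 CPM in replicates 1, 2 and 3, and Pou2f3 at 11.4, 11.4 and 14.7 CPM. Between replicates 1 and 2, Sucnr1 and Trpm5 were both higher in replicate 1. Summed over the 30 core genes, the level was 423 to 699 CPM in the non-tuft libraries and 37268 to 46006 CPM in the small intestine tuft libraries. Per 100 counts of Pou2f3, Sucnr1 had 8.20, 4.50 and 2.09 counts in the non-tuft replicates 1, 2 and 3, and 2.69 to 5.25 in the tuft libraries. These ranges overlapped, as did those per 100 counts of Trpm5 (0.442 to 2.99 in non-tuft and 0.402 to 0.690 in tuft libraries). The log2 level of Sucnr1 minus the mean log2 level of the core genes, with 0.5 CPM added to each, did not overlap. It was -3.92 to -2.73 in non-tuft and -4.69 to -4.08 in tuft libraries. The added 0.5 CPM is of the size of the non-tuft Sucnr1 level itself (0.306 to 0.934 CPM). It lifts that level far more than the tuft level, so no higher share of Sucnr1 in non-tuft cells can be read from this gap. The part of residual tuft cells in the non-tuft level was not tested.

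Set against the same non-tuft reference in 1 fit of all 21 libraries, with 20335 genes tested, Sucnr1 was called higher in 3 of 5 organs. It rose by 5.36 ± 0.85 (SE) on the log2 scale in small intestine tuft cells (adjusted p = 1.96e-04; 3.86% of genes called higher) and by 6.83 ± 0.90 in trachea (adjusted p = 4.80e-06; 14% called higher). In thymus it rose by 2.47 ± 0.73 (adjusted p = 0.0142; 17.2% called higher), a call lost without non-tuft replicate 2 (adjusted p = 0.0669) or replicate 3 (0.0851). In colon the log2 fold change of 2.22 ± 0.72 was not called (adjusted p = 0.0626; 4.4% called higher), although no colon library overlapped the non-tuft libraries. It was called by DESeq2 (2.19, adjusted p = 0.00981), by limma voom with sample weights (1.92, adjusted p = 0.0116) and when gall bladder replicate 3 was left out of the shared fit (2.22, adjusted p = 0.0364). In gall bladder the value was -0.34 ± 0.74 (adjusted p = 0.766; 26% of genes called either way), with the sign turning to 0.18 without non-tuft replicate 1 and to 0.02 without gall bladder replicate 4.

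Between the tuft cells of the 5 tissues there are 10 pairs, tested in 1 fit of the 18 tuft libraries with 19850 genes. Sucnr1 was called in 8 of them. Adjustment of the p-values over genes and all 10 pairs together left the same 8 called, with adjusted p between 2.20e-05 and 0.0218.

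Trachea stood above gall bladder, colon and thymus. Its log2 fold change was 7.18 ± 0.95 (SE) over gall bladder (adjusted p = 2.44e-05; 23.8% of genes called), 4.65 ± 0.73 over colon (9.00e-05; 27.1% called) and 4.25 ± 0.72 over thymus (2.69e-04; 27.9% called). Over small intestine tuft it was 1.51 ± 0.71 and not called (adjusted p = 0.118; 27.8% called). That last step was called under 3 alternatives: limma voom (1.44, adjusted p = 0.00632), a fit of these 2 tissues alone (1.55, adjusted p = 0.0336) and scaling on the tuft core list (2.19, adjusted p = 0.0361). Without the 2 female pools it was 1.22 (adjusted p = 0.298).

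Below small intestine tuft cells lay gall bladder, at -5.67 ± 0.90 (SE; adjusted p = 2.20e-04; 14.8% of genes called), colon, at -3.15 ± 0.71 (0.00671; 8.36% called), and thymus, at -2.74 ± 0.70 (0.00709; 25.7% called). Scaling on the tuft core list in place of all genes ended the calls in colon (-1.25, adjusted p = 0.155) and thymus (-1.37, adjusted p = 0.129), and left that in gall bladder (-5.48, adjusted p = 5.02e-04). That scaling moved the median of all genes by 2.00 in colon, 1.39 in thymus and 0.02 in gall bladder.

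Gall bladder was also lower than colon, at -2.53 ± 0.76 (SE; adjusted p = 0.0259; 18.2% of genes called), and thymus was higher than gall bladder, at 2.93 ± 0.78 (0.00899; 30.6% called). The former call was lost without colon replicate 4 (-1.92, adjusted p = 0.0872), gall bladder replicate 1 (-2.18, adjusted p = 0.0918) or gall bladder replicate 4 (-2.17, adjusted p = 0.0903), with limma voom (adjusted p = 0.234), in a fit of these tissues alone (0.148) and with the replicate number as a block (0.0651). The thymus call was lost with limma voom (adjusted p = 0.112) and in a fit of these tissues alone (0.103). Thymus and colon did not pass the test (0.40 ± 0.63, adjusted p = 0.709; 25.6% called), and the sign turned without thymus replicate 1 (-0.10) and with scaling on the tuft core list (-0.11).

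**Figure D2:**
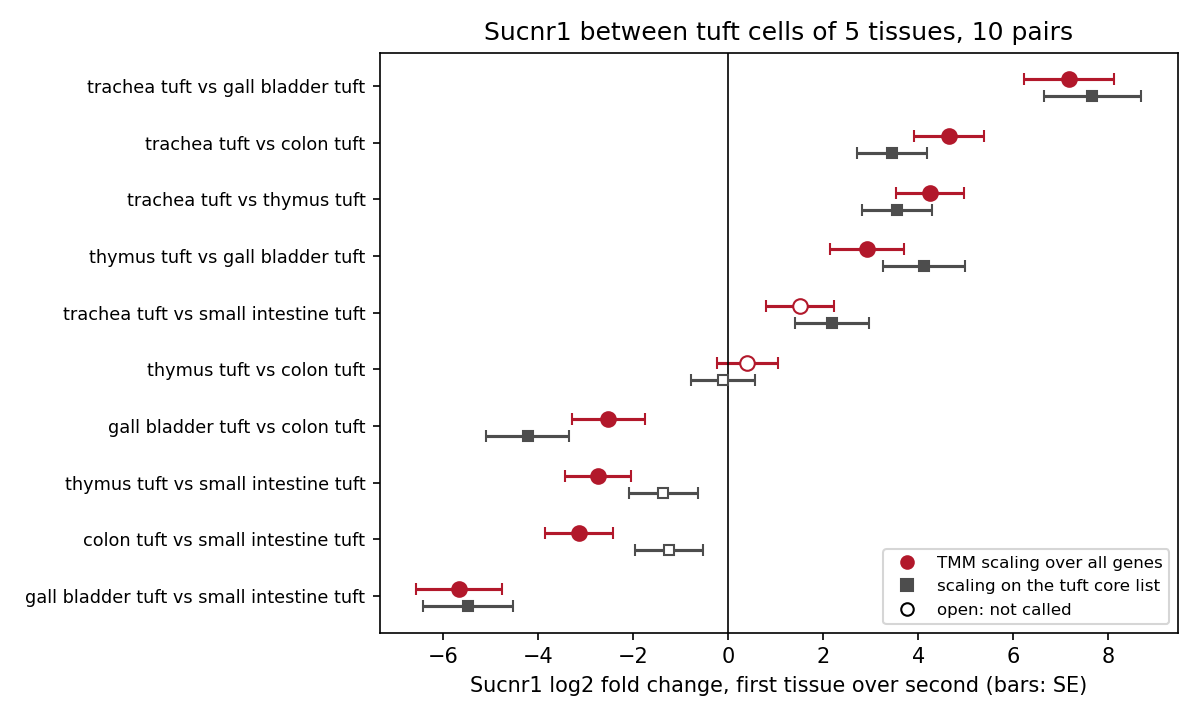
Log2 fold changes of Sucnr1 for the 10 pairs of tissues in the 18 tuft libraries, first tissue over second, with SE as bars. Red circles use TMM scaling over all genes and grey squares scaling on the tuft core list, and open symbols were not called. Trachea over gall bladder is at the top (7.18 and 7.67), and the colon and thymus values against small intestine (-3.15 and -2.74) move to -1.25 and -1.37 with the second scaling.

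Other tuft cell genes give the setting of these differences. In gall bladder over small intestine tuft cells, 3 of the 30 core genes were called higher and 5 lower (7.21% and 7.54% of all genes tested), with a median log2 fold change of 0.11 (0.00 over all genes tested), and none had a value as low as Sucnr1's -5.67. The nearest was Matk, a tyrosine kinase gene, at -4.45 ± 0.40 (SE). Trpm5 was at 5657 CPM in gall bladder and 4868 CPM in small intestine (0.22 ± 0.22, not called), and Dclk1, a kinase gene used as a tuft cell marker, at 3350 and 2380 CPM (0.49 ± 0.20, not called). Pou2f3 was at 362 and 641 CPM (-0.83 ± 0.25, not called).

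In colon, 24 of the 30 core genes fell relative to small intestine tuft cells and 0 rose (3.9% and 4.46% of all genes), with a median of -1.92, and 3 had lower values than Sucnr1's -3.15. In thymus 21 fell and 2 rose (8.27% and 17.4% of all genes), with a median of -1.26, and 5 had lower values than Sucnr1's -2.74. In trachea 13 fell and 2 rose (14.7% and 13.1% of all genes), with a median of -0.62, and 2 had higher values than Sucnr1's 1.51. These were Tas1r3, a subunit of the sweet and umami taste receptors (5.93), and Gng13, a taste G protein gamma subunit (4.51). Scaling on the core list itself leaves 4 lower and 1 higher in colon, 6 and 7 in thymus, and 7 and 7 in trachea, and 5 and 3 in gall bladder as before. Since that scaling is set by the core genes, the balance of their counts and the signs of single core genes follow in part from it. Under that scaling 1.51% of all genes were called lower and 41.7% higher in colon, 3.12% and 39.3% in thymus, 10.2% and 22.8% in trachea, and 6.86% and 6.65% in gall bladder. With it the colon values of Pou2f3 (0.22) and Dclk1 (0.56), and the thymus values of Dclk1 (0.22) and Rgs13 (0.13), turn positive.

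A ratio within each library does not depend on the scaling between libraries. Per 100 counts of Pou2f3, Sucnr1 had 5.42 to 7.49 counts in trachea, 2.69 to 5.25 in small intestine tuft, 0.640 to 3.20 in colon, 0.238 to 1.25 in thymus and 0.0423 to 0.293 in gall bladder. Trachea lay above small intestine with a narrow gap, colon and small intestine overlapped, and gall bladder lay below all other tuft groups but for an overlap with thymus. Per 100 counts of Trpm5 the ranges were 1.66 to 3.36 in trachea, 0.402 to 0.690 in small intestine tuft, 0.107 to 0.364 in colon, 0.0963 to 0.564 in thymus and 0.00384 to 0.0171 in gall bladder. By this ratio trachea lay well above small intestine, colon below it without overlap, thymus overlapped both, and gall bladder overlapped none. The log2 level of Sucnr1 minus the mean log2 level of the core genes averaged -9.13 in gall bladder, -5.91 in thymus, -5.54 in colon, -4.44 in small intestine tuft and -2.30 in trachea. The 0.5 CPM added to each level exceeds that of Sucnr1 in gall bladder replicates 1 and 4 (0.228 and 0.209 CPM). The size of the gall bladder value therefore depends on it.

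**Figure D3:**
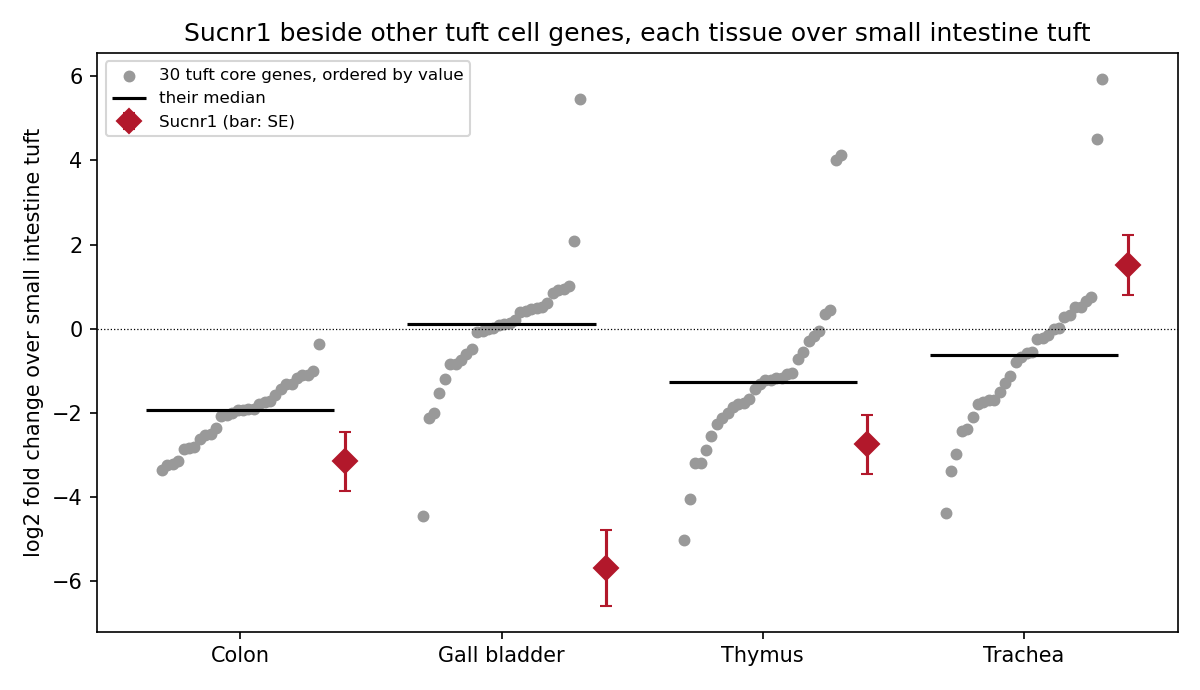
Log2 fold changes over small intestine tuft cells in colon, gall bladder, thymus and trachea: grey points are the 30 tuft core genes in order of value, black lines their medians (-1.92, 0.11, -1.26 and -0.62), and red diamonds Sucnr1 with its SE. In gall bladder the diamond (-5.67) lies below every grey point, and in trachea (1.51) above all but 2.

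The succinate receptor was measured beside 26 related or nutrient-sensing receptors. In the small intestine comparison 16 of them were tested, 3 rose in tuft cells and 9 fell (13% and 13.9% of all genes), with a median log2 fold change of -1.76. Ffar3, a receptor for short-chain fatty acids, rose by 6.68 ± 0.22 (SE), Lpar6, a lysophosphatidic acid receptor, by 2.19 ± 0.32, and Gpr55, a lysophosphatidylinositol receptor, by 1.70 ± 0.16. Ffar3 was the only one of the 16 with a larger value than Sucnr1. Oxgr1, the receptor for 2-oxoglutarate and a close relative of Sucnr1, was at a mean of 0.316 CPM in thymus and under 0.03 CPM in the other 5 groups.

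Per kilobase of exon, which allows levels of different genes to be compared, Sucnr1 was at 40.6 CPM in trachea tuft cells, and the next of the 26 receptors was Hcar2, a hydroxycarboxylic acid receptor, at 11.2. In small intestine tuft cells Sucnr1 was at 14.7, behind Ffar3 at 341, F2rl1, a protease-activated receptor, at 34.3 and Gpr55 at 26.7. In gall bladder tuft cells Sucnr1 was at 0.285 and Ffar3 at 159. Ffar3 and Sucnr1 thus stood in opposite order in trachea, where Ffar3 was at 1.62.

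Between trachea and small intestine tuft cells 21 of the 26 receptors were tested, 4 rose and 8 fell (13.1% and 14.7% of all genes), with a median of -0.81 (0.06 over all genes). Ffar3 fell by 7.72 on the log2 scale (SE 0.68), and P2ry2, a nucleotide receptor, rose by 2.52 ± 0.88. Hcar2, at 0.105 and 21.6 CPM in small intestine tuft and trachea, was called higher, from few counts in small intestine and with 1 pool at 73.7 CPM and the other 3 at 1.66 to 8.72. Among the receptors tested against small intestine tuft, 2 rose and 2 fell in colon (4.46% and 3.9% of all genes), 1 rose and 3 fell in gall bladder (7.21% and 7.54%), and 6 rose and 5 fell in thymus (17.4% and 8.27%), each of 21. Scaling on the tuft core list gave 9 higher and 0 lower in colon (41.7% and 1.51% of all genes) and 9 and 3 in thymus (39.3% and 3.12%), so the higher counts there are near the share of all genes. Gpr55 was called lower in all 4 tissues with TMM scaling, with values from -6.93 in trachea to -2.99 in colon.

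**Figure D4:**
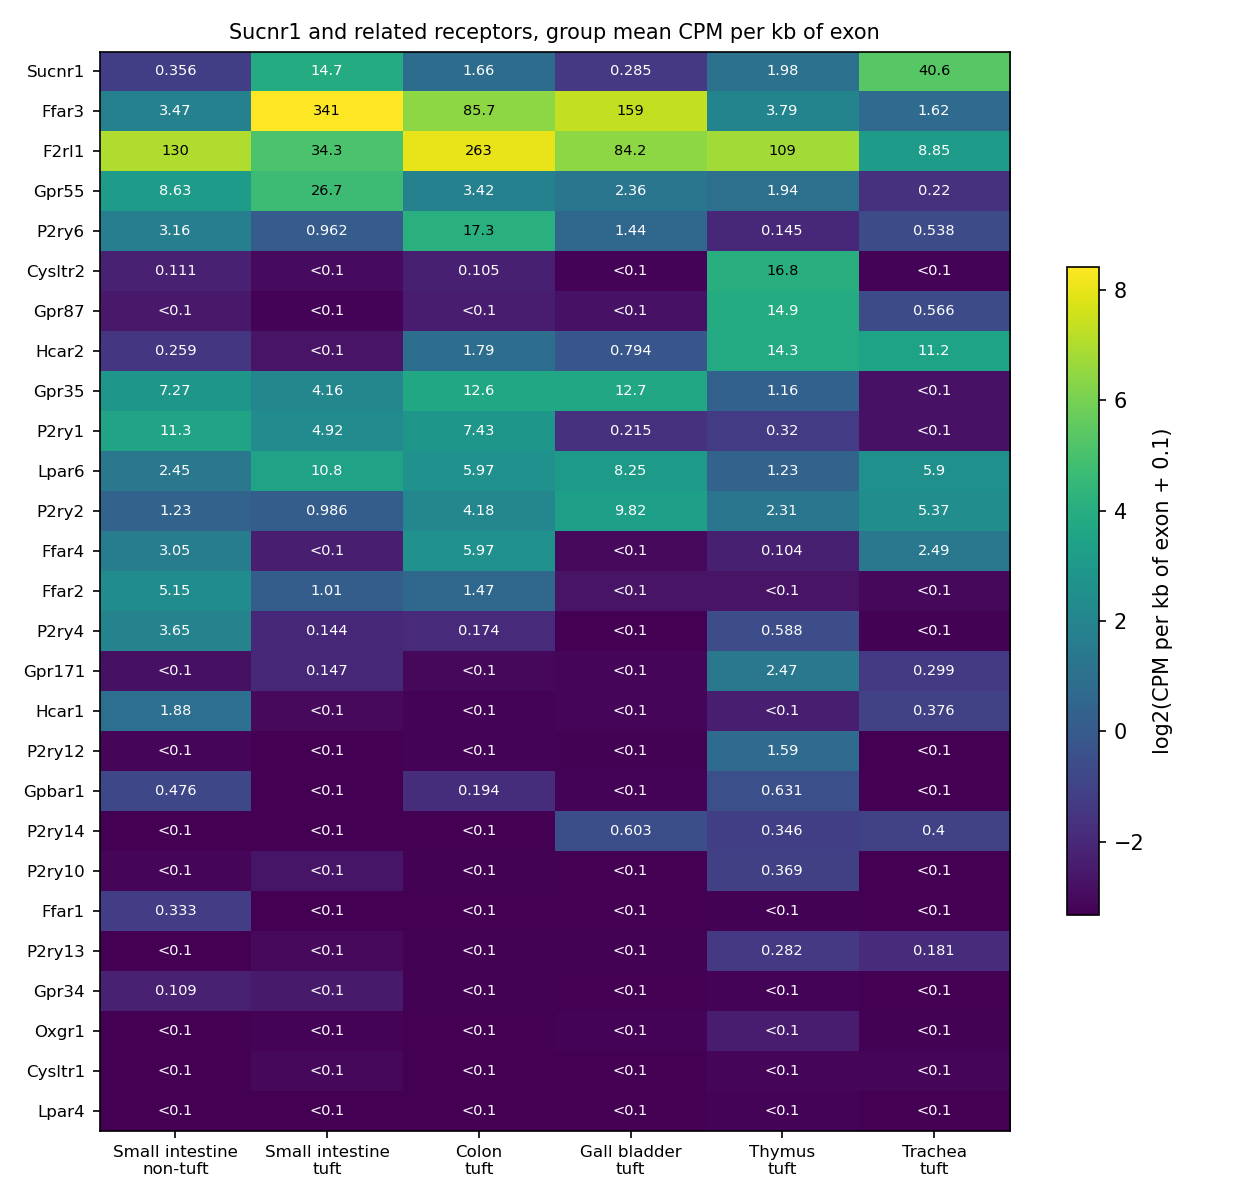
Group mean level per kilobase of exon, in CPM, of Sucnr1 (top row) and 26 related receptors in the 6 groups; the colour is log2 of the level plus 0.1, and cells print the level itself. Sucnr1 holds the highest value of the trachea column (40.6), while Ffar3 (341) does so in small intestine tuft cells and F2rl1 (263) in colon.

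Genes that carry a receptor signal onward formed another list. Of 23 genes of G proteins and the taste cascade, 21 were tested in the small intestine, and 7 rose and 3 fell in tuft cells (13% and 13.9% of all genes). Those that rose included Gnai2, an inhibitory G protein alpha subunit, at 2.22 ± 0.18 (SE), and Plcb2, the taste phospholipase, at 6.04 ± 0.27. In trachea over small intestine tuft cells 9 of 23 rose and 4 fell (13.1% and 14.7% of all genes). Gnat3, the gustducin alpha subunit, rose from 35.9 to 5428 CPM (7.26 ± 0.60), Gnb3, its beta subunit, from 2.24 to 940 CPM (8.72 ± 1.10), and Gnai1 from 6.63 to 435 CPM (6.03 ± 0.57).

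In gall bladder 2 of these 23 genes rose and 4 fell relative to small intestine tuft cells (7.21% and 7.54% of all genes), so the count that rose is near the share of all genes. Itpr2, an inositol trisphosphate receptor, rose by 1.86 ± 0.23 (SE), and Plcb2 fell by 1.20 on the log2 scale (SE 0.40). Colon had 3 higher and 2 lower (4.46% and 3.9% of all genes), and thymus 6 higher and 4 lower (17.4% and 8.27%). Scaled on the tuft core list, colon had 13 higher and 0 lower (41.7% and 1.51% of all genes) and thymus 14 and 2 (39.3% and 3.12%).

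Of 18 genes that regulate receptors and their second messengers, 17 were tested. In the small intestine 6 rose in tuft over non-tuft cells and 0 fell (13% and 13.9% of all genes). Against small intestine tuft cells 5 rose and 3 fell in trachea (13.1% and 14.7% of all genes), among those that rose Rgs2, a regulator of G protein signalling, at 1.63 ± 0.26 (SE), and Grk3, a receptor kinase, at 1.61 ± 0.29. In colon 0 rose and 5 fell (4.46% and 3.9% of all genes), in gall bladder 2 rose and 1 fell (7.21% and 7.54%), and in thymus 4 rose and 3 fell (17.4% and 8.27%). Scaled on the tuft core list, 7 were higher and 2 lower in colon (41.7% and 1.51% of all genes), and 7 and 0 in thymus (39.3% and 3.12%), so the higher counts are near the share of all genes.

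A list of 13 held outputs of tuft cells, such as Il25, leukotriene and prostaglandin synthesis genes and Chat, the acetylcholine synthesis gene. It also held the cytokine receptor genes Il17rb, Il13ra1 and Il4ra, which are not outputs. Without Il25, on which the cells were gated, 10 of 12 rose in tuft over non-tuft cells of the small intestine and 1 fell, Il33 (13% and 13.9% of all genes). In gall bladder over small intestine tuft cells 1 rose and 1 fell of 13 (7.21% and 7.54% of all genes), and Il25 was at 25.3 against 24.7 CPM (0.06 ± 0.77, not called). In colon 0 rose and 7 fell (4.46% and 3.9% of all genes), in thymus 2 rose and 5 fell (17.4% and 8.27%), and in trachea 2 rose and 4 fell (13.1% and 14.7%). Scaled on the tuft core list, 2 were higher and 0 lower in colon (41.7% and 1.51% of all genes), 4 and 0 in thymus (39.3% and 3.12%), and 2 and 1 in trachea (22.8% and 10.2%).

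Of genes that make or use succinate inside the cell 18 were tested in the small intestine, and 1 rose and 2 fell in tuft cells (13% and 13.9% of all genes), with a median of -0.15. Sdha, the catalytic subunit of succinate dehydrogenase, had group means of 265 to 358 CPM. Against small intestine tuft cells, of 19 tested, 1 rose and 0 fell in colon (4.46% and 3.9% of all genes), 0 rose and 2 fell in gall bladder (7.21% and 7.54%), 1 rose and 5 fell in thymus (17.4% and 8.27%), and 2 rose and 3 fell in trachea (13.1% and 14.7%). Scaled on the tuft core list, 13 were higher and 0 lower in colon (41.7% and 1.51% of all genes), 6 and 0 in thymus (39.3% and 3.12%), and 2 and 0 in trachea (22.8% and 10.2%).

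Transporters of succinate and related acids were 8 genes. Relative to small intestine tuft cells, 0 rose and 1 fell in colon (4.46% and 3.9% of all genes), 0 and 4 in gall bladder (7.21% and 7.54%), 1 and 3 in thymus (17.4% and 8.27%), and 0 and 5 in trachea (13.1% and 14.7%). Scaled on the tuft core list, 5 were higher and 1 lower in colon (41.7% and 1.51% of all genes) and 1 and 1 in thymus (39.3% and 3.12%). Slc13a2, the sodium-coupled dicarboxylate transporter, was at 44.9 CPM in small intestine tuft cells and 0.149 CPM in gall bladder (-8.18 ± 1.13, SE). Slc16a1, a monocarboxylate transporter that can also export succinate, was at 23.9 CPM in small intestine tuft cells and 0.0700 CPM in trachea, and was called lower there.

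The profile of Sucnr1 over the 6 groups was compared with that of 13072 genes that had a group mean of at least 5 CPM. The measure was the root mean square difference between group means of log2(CPM + 0.5), each gene centred on its own mean, over 6 groups and 21 libraries. The 8 nearest genes were Hoxa4, a homeobox transcription factor (0.74), Adh7, an alcohol dehydrogenase (0.99), A2ml1 (1.07), Clba1 (1.12), Gcnt1, an enzyme of O-glycan branching (1.19), the non-coding RNA Hotairm1 (1.20), AI480526 (1.24) and Rgs22 (1.25). The median over all ranked genes was 2.45. These distances carry no test, and 4 of the 8 genes stayed among the nearest 8 with a pseudocount of 0.1 CPM and 6 with one of 2 CPM.

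Hoxa4 was at 13.5, 6.43 and 9.80 CPM in small intestine tuft replicates 2, 3 and 4, at 0.0539, 0.0408 and 0.525 CPM in the non-tuft replicates, and at 0.152, 0.0358 and 0.497 CPM in gall bladder. In trachea it was at 23.8, 120, 12.1 and 17.2 CPM, so pool 2 stood far above the other 3. Hoxa4 was picked for group means like those of Sucnr1, so the high and low groups that they share follow from that choice. Its order over the 4 trachea pools, which the choice did not use, was another. Adh7 was at 413, 31.6, 170 and 28.2 CPM in trachea pools 1 to 4, and pool 1 was the highest for Adh7 and the lowest for Sucnr1. Hoxa4 and Hotairm1 lie in a gene cluster with transcripts on both strands, and whether reads were counted by strand is unknown here. None of the 30 tuft core genes ranked above place 284, that of Pou2f3 (1.76).

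**Figure D5:**
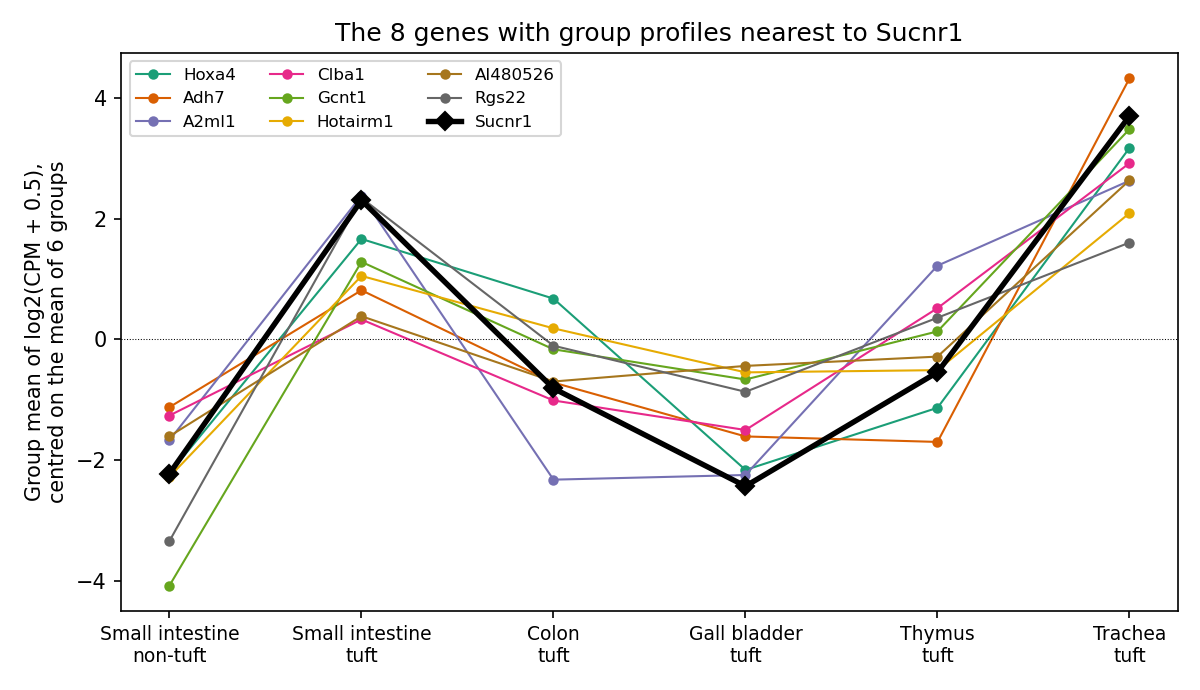
Group means of log2(CPM + 0.5), centred on the mean of 6 groups, for Sucnr1 (thick black line) and the 8 genes with the nearest profiles (thin lines). Sucnr1 peaks in trachea and in small intestine tuft cells and is lowest in gall bladder and non-tuft cells, a shape that Hoxa4, at a distance of 0.74, follows most closely.

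The protein-coding neighbours within 500 kb had levels unlike those of Sucnr1. Aadac, an esterase gene that ends 41709 bp before it, was at 117 ± 10.8 CPM (SD, n = 3) in non-tuft and 103 ± 8.27 CPM (n = 3) in small intestine tuft cells, and at 0.170 ± 0.167 CPM (n = 4) in trachea. Mbnl1, a splicing regulator 385264 bp away, had group means of 177 to 310 CPM. Gm5538, Gm8298, C130079G13Rik and Aadacl2 had group means of at most 3.57 CPM.

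Markers of other cells moved with tissue. The tuft core list was summed at 15284 to 25907 CPM in trachea, 8446 to 10793 in colon, 31531 to 36479 in gall bladder and 10463 to 12106 in thymus, with none of its genes at 0 in every library of a tissue. A list of 7 airway epithelium markers was summed at 125312, 52383, 41751 and 28741 CPM in trachea pools 1 to 4 and at no more than 1501 CPM in any other library, with none at 0. Pool 1, with the highest sum, had the lowest Sucnr1 level (40.0 CPM), and pool 4, with the lowest sum, the highest (94.9 CPM). Pools 2 and 3 went the other way, since pool 2 had both the higher sum and the higher Sucnr1 level (73.5 against 58.1 CPM). The part of other airway cells in the trachea level of Sucnr1 was not tested. Without pool 1 the log2 fold change over small intestine tuft was 1.70 (adjusted p = 0.0921), and without pool 4 it was 1.23 (adjusted p = 0.232).

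Some myeloid cells also express Sucnr1. A list of 12 myeloid markers was summed at 1767 to 3928 CPM in trachea, against 26.0 to 57.9 CPM in small intestine tuft cells, 52.0 to 135 in gall bladder and 265 to 316 in thymus. Lyz2 made up most of it in trachea, with a mean of 2613 CPM. Cd14 (64.6 CPM), Cd68 (13.1 CPM, up to 37.7 in 1 pool, against 4.87 in small intestine tuft) and Mrc1 (8.46 CPM) followed. The other markers with counts in trachea ran from Aif1, at 0.00393 CPM, to Adgre1, at 1.10 CPM and up to 4.33 in 1 pool, with Csf1r at 0.0464 CPM. Fcer1g and Cx3cr1 were at 0 in all 4 pools. The part of myeloid cells in the trachea level of Sucnr1 was not tested.

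Thymus tuft libraries held thymic epithelium markers, with the medullary marker Aire at 219 CPM. The list of 6 was summed at 469 to 608 CPM there and at no more than 8.32 CPM elsewhere. That list is not medullary alone. It also holds the cortical markers Prss16 (23.6 CPM in thymus) and Psmb11 (2.34 CPM), and Foxn1 (165 CPM), a marker of thymic epithelium at large. Enterocyte markers were summed at 33667 to 38429 CPM in small intestine tuft and 18750 to 20030 CPM in non-tuft libraries. Goblet cell markers were at 2126 to 2625 and 103610 to 113629 CPM in these groups, and enteroendocrine markers at 343 to 877 and 8892 to 12511 CPM. Colonocyte markers were summed at 18701 to 23923 CPM in colon tuft and 10365 to 10970 CPM in non-tuft libraries. Most of that sum was Lypd8, with means of 18103 and 10370 CPM. Biliary epithelium markers, 7 genes, were summed at 1333 to 1682 CPM in gall bladder tuft libraries. That range overlapped non-tuft (1494 to 1842 CPM), colon (1660 to 1965 CPM) and trachea libraries (996 to 1910 CPM). It lay above thymus (326 to 381 CPM) and small intestine tuft libraries (637 to 826 CPM). Krt19, the largest member, had a mean of 552 CPM in gall bladder against 1392 CPM in non-tuft cells. Sox17 (69.5 CPM) and Spp1 (268 CPM) had their highest group means in gall bladder. Total counts ran from 25739248 to 73574745 per library, and the cells sorted from 130 to 453 in trachea, 1350 to 2700 in thymus and gall bladder, and 13500 to 57000 in gut. The share of mitochondrial counts was 24.1% to 33.5% in small intestine tuft, 14.8% to 17.0% in gall bladder, 5.57% to 10.1% in trachea and 4.38% to 5.97% in thymus. The part of cell number, RNA amplification and tissue dissociation in the differences between tissues cannot be told apart from the tissue, since each tissue had its own.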

How the data were processed

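The authors deposited unnormalized gene counts of 21 libraries of sorted mouse cells, whose poly(A) RNA was amplified as cDNA without molecular identifiers ahead of Nextera XT library preparation, per the labels' protocols. STAR, DESeq2 and GRCm38 are named in the submitters' processing notes; their versions and the counting step, strand included, are not given in the sources used. After quality control the study left out 3 libraries, 1 each of the groups with 3 here, per the series text. Identifiers were matched to GENCODE M21; 884 did not match (0.0986% of counts). No 2 libraries of a group agreed within sampling noise. The labels give the number of mice in a library but not whether libraries share a mouse, so p-values measure the spread between these samples.

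Genes passing filterByExpr were TMM-scaled and tested with edgeR 4.0.16 (quasi-likelihood F test, glmQLFit with legacy = TRUE, two-sided, Benjamini-Hochberg over all genes tested) in R 4.3.3, in 3 fits: 6 small intestine libraries, all 21, and the 18 tuft libraries. Standard errors, the log2 fold change divided by the root of F, are approximate. Levels are scaled over all 21 libraries. Alternatives were DESeq2 1.42.0, limma 3.58.1 voom with sample weights, other scalings and filters, a replicate block, fits of 2 tissues and leaving out each library. The fits were tested on simulated counts. Genes named are Sucnr1, Il25, Pou2f3, Trpm5 and Dclk1, members of 17 gene lists, the 8 nearest profiles (predicted genes, sex-linked markers and antigen receptor segments left out of the ranks) and protein-coding neighbours within 500 kb. The gene and the lists were chosen with earlier results of these data known. Intervals cover counting error only, since amplified reads are not independent molecules. Figures were drawn with matplotlib 3.10.9.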

Additional observations from a re-analysis of the deposited data

Results flagged for a closer look

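In groups of 4 libraries, a library whose gap to its nearest neighbour takes up over 0.829 of the group's range was singled out. Of 45 groups tested (group and measure), 4 held one, and chance alone gives about 1 in 20. Sucnr1 relative to the mean log2 level of the tuft core genes was -1.68 in trachea replicate 4, against -2.58 to -2.46 in the other 3 pools. Hoxa4 was at 120 CPM in trachea replicate 2 and at 12.1 to 23.8 CPM in the others. Clba1 was at 2.09 CPM in thymus replicate 3, below the 3.88 to 4.20 CPM of the others. AI480526 was at 29.0 CPM in colon replicate 2, above 16.3 to 18.2 CPM in the others.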

How the results depend on the processing

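The 16 comparisons of Sucnr1 gave 444 values under alternatives. Of these 422 kept direction and call, 12 lost the call, 6 gained it and 4 turned sign, and 7 comparisons changed under none. Those 7 are small intestine tuft against non-tuft cells in both fits, gall bladder against small intestine tuft, and trachea against gall bladder, colon, thymus and non-tuft cells. Where values changed, the cause was not tested.

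Colon over non-tuft cells was 2.19 with DESeq2 and 1.92 with limma voom, both called, and ran from 1.56 to 2.73 with 1 library left out. Trachea over small intestine tuft was 1.44 with limma voom, 2.19 with scaling on the tuft core list and 1.55 in a fit of 2 tissues, all called. Gall bladder over colon was not called with limma voom (-2.56, adjusted p = 0.234), in a fit of 2 tissues (-2.53, adjusted p = 0.148) or with the replicate number as a block (-2.41, adjusted p = 0.0651), and ran from -3.60 to -1.92 with 1 library left out. Thymus over gall bladder was not called with limma voom (3.06, adjusted p = 0.112) or in a fit of 2 tissues (2.88, adjusted p = 0.103). Scaling on the tuft core list gave -1.25 for colon and -1.37 for thymus over small intestine tuft, neither called, and -0.11 for thymus over colon; it moved the median of all genes by 2.00, 1.39 and -0.60 in these, and by 0.75 for trachea over small intestine tuft. Named genes that turned sign there were Pou2f3 (0.22) and Dclk1 (0.56) in colon and Dclk1 (0.22) and Rgs13 (0.13) in thymus. All are members of the list that sets this scaling. DESeq2 size factors moved that median by 0.22 for thymus over non-tuft cells and by 0.11 to 0.12 for thymus over the gut and gall bladder tuft groups; limma voom moved it most for trachea over non-tuft cells (-0.53). With 1 library left out, gall bladder over non-tuft cells ran from -1.41 to 0.18, thymus over non-tuft from 2.11 to 2.98 and thymus over colon from -0.10 to 1.01. Of the 8 nearest profiles, 4 stayed with a pseudocount of 0.1 CPM. Of 1806 counts of listed genes 188 moved by over 1.5 times, and of 1323 values of named genes 67 changed their call.

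Whether the replicate numbers pair the libraries was not settled. Deviations of same-numbered libraries of different groups correlated at -0.033 to 0.130, with 1 of 45 pairs over 0.1. Differently numbered ones ran from -0.074 to 0.084, with 0 of 138 over 0.1. Between colon and thymus every same-numbered pair was positive (0.064 to 0.079) and every other pair negative (-0.048 to -0.00096). Deviations offset each other within a group, so the negative values follow in part from the positive ones. Between small intestine tuft and trachea same-numbered pairs were at 0.044 to 0.130 and others at -0.074 to 0.033. These groups were picked for their high values. Between thymus and trachea same-numbered pairs were at -0.022 to 0.00021 and others at -0.014 to 0.026. The block changed no other call of Sucnr1. Gall bladder values rest on 8 to 27 counts a library.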
